A study of Mus musculus with 4 samples.

Results

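The cells described here are 639 thymic regulatory T (Treg) cells rich in Tnfrsf9, Lmo4 and Nrp2 transcripts, out of 7231 cells in the deposited normalized table labelled G1 and 8273 cells in the deposited count table. The cells were chosen by 2 measured values. A cell was taken if Nrp2, Igsf3, Tnfrsf9, Lmo4, Arhgap20, Nrip1 and Rgs16 together made up 2000 or more UMIs (unique molecular identifiers, counted transcripts) per 1000000 UMIs of its total, and if it held fewer than 4 UMIs over 7 genes induced by T cell receptor (TCR) signalling, which are Nr4a2, Nr4a3, Egr2, Irf4, Cd83, Nfkbid and Gadd45b. These cells are called rich cells below, and UMIs per 1000000 are written CPM. They were set against 6166 cells of the same table below both limits, and also against 366 cells over the TCR limit only. A further 60 cells were over both limits.

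Treg cells restrain immune responses and, in the thymus, arise from CD4 single-positive thymocytes that meet self-antigen strongly enough for agonist selection and that then receive signals from the cytokines IL-2 and IL-15 through STAT5. Tnfrsf9 (4-1BB) belongs to the TNF receptor family, whose members signal through TRAF adaptors to NF-kB and are raised on developing Treg cells. Lmo4 is a LIM-domain adaptor of transcription factor complexes, Nrp2 is a semaphorin and VEGF co-receptor, Nrip1 is a nuclear receptor corepressor, Arhgap20 is a GTPase-activating protein, Rgs16 shortens G protein signalling and Igsf3 is an immunoglobulin-domain membrane protein.

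The series has 4 samples, 1 per genotype, of mice 3 weeks old that all carry the Rag2-Gfp and Foxp3-Thy1a reporters on the B6 background. The genotypes are IL2 wt/wt, IL2 o/o, IL15 wt/wt and IL15 o/o. The sort gate was CD4+CD8-Thy1.1+GFP+ for every sample, so the cells expressed the Foxp3 reporter and still held the Rag2 reporter of recent thymic origin, and all were run on Chromium 3' v2 chemistry. Cell barcodes carry suffixes 1 to 4, called libraries 1 to 4 here, and no label ties a suffix to a genotype, so no knockout was compared with its wild type. Genes that the results turn on are given in each library, and other values over all libraries together. Cells are not replicates, so no test was run and the intervals below cover counting error only.

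Rich cells had a median of 2871 UMIs each (range 834 to 14339) and cells below both limits 3111 (range 875 to 23868). Mitochondrial transcripts took 2.33% and 2.29% of UMIs. In libraries 1 to 4 the medians were 3439, 3446, 2761 and 2606 UMIs in the rich cells and 3759, 3501, 2545 and 2981 in the cells below both limits. Library 3 stood apart from the others in cells below both limits: Il2ra, the IL-2 receptor alpha chain, was at 29.9 CPM there and at 161 to 179 in the others, and Socs2, a STAT5-induced inhibitor of cytokine signalling, at 1.20 against 38.4 to 50.6. A total of 54 cells, 9 of them rich cells, shared 27 barcode sequences between libraries, and no doublet caller was run.

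Rich cells made up 83 of 1397 cells in library 1 (5.94%, 95% exact interval 4.76 to 7.31), 135 of 2107 in library 2 (6.41%, 5.399 to 7.54), 260 of 1784 in library 3 (14.6%, 13.0 to 16.3) and 161 of 1943 in library 4 (8.29%, 7.10 to 9.60). Library 3 was the highest and its interval overlapped none of the others. It stayed the highest when the 6508 cells with at least 1886 UMIs were first thinned to 1886, at 19.2% against 9.32%, 10.4% and 10.2% in libraries 1, 2 and 4. Shallower cells were left out, so library 3 kept 1482 of its 1784 cells and library 1 kept 1341 of 1397. The cap of fewer than 4 TCR-induced UMIs was not lowered for the thinned depth. It was also the highest with a limit of 3000 CPM, at 6.11% against 2.79%, 1.99% and 2.52%. Among cells of at least 2500 UMIs the shares were 5.39%, 6.09%, 15.9% and 6.68%. Over all cells of the G1 table the 7 genes summed to 709, 721, 1057 and 752 CPM in libraries 1 to 4, and the 7 TCR-induced genes to 205, 199, 173 and 210.

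**Figure D1:**
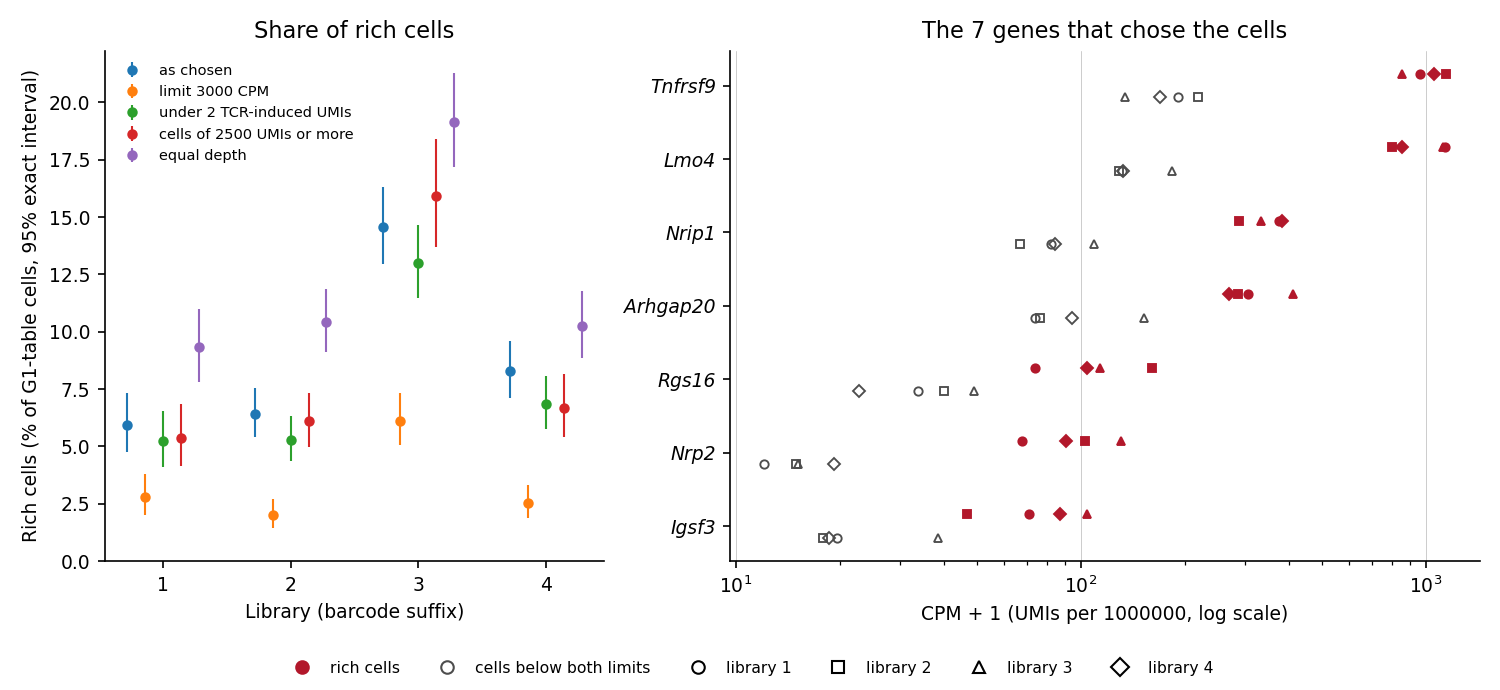
Left, rich cells as a percent of the G1-table cells of each library, with 95% exact binomial intervals, for the limits as chosen and for 4 other settings. Right, the 7 genes that chose the cells, in CPM plus 1 on a log axis, 1 point per library, in rich cells (filled) and in cells below both limits (open). Library 3 has the highest share in each setting, 14.6% as chosen.

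The levels of the 7 genes follow from the choice of cells and are given as a description. Tnfrsf9 was at 960, 1141, 850 and 1057 CPM in the rich cells of libraries 1 to 4. Lmo4 was at 1137, 796, 1121 and 855. Of the UMIs that chose the cells, Tnfrsf9 carried 33.6% and Lmo4 33.4%. Nrip1 was at 374, 287, 331 and 382, and Arhgap20 at 304, 285, 410 and 267. Rgs16, Nrp2 and Igsf3 were lower, at 116, 104 and 80.4 over all rich cells. Cells below both limits held 183 CPM of Tnfrsf9, 140 of Lmo4, 81.4 of Nrip1, 93.1 of Arhgap20, 34.8 of Rgs16, 14.4 of Nrp2 and 21.2 of Igsf3.

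Few rich cells held every gene. Of the 639, 23 held a UMI of 1 of the 7 genes, 111 of 2, 191 of 3, 200 of 4, 86 of 5, 26 of 6 and 2 of all 7. Nrp2 was found in 140 rich cells and Igsf3 in 135, whereas Tnfrsf9 was found in 515 and Lmo4 in 476. Without Tnfrsf9, 323 of the cells would fall under the limit, and without Lmo4, 308 would. Cells just inside the limit, at 2000 to under 2200 CPM, numbered 129, with a median of 6 UMIs of the 7 genes in 2842 UMIs. Those just outside, at 1800 to under 2000, numbered 147, also with a median of 6, in 3157 UMIs. Of the rich cells, 445 held none of the TCR-induced UMIs.

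Promoter windows of all 7 genes, at 11 start sites, were in the RefSeq table (GRCm38.p6), each 300 bases long with 250 bases before the start and 50 after. The windows of Tnfrsf9, Nrp2 and Lmo4 are shown because these genes name the cells. For Lmo4, 1 of its 3 start sites is printed, and the other two windows held no match to the marked patterns. Capitals mark matches on either strand to TGANTCA, the AP-1 motif, or to GGAAANNCC, a short pattern found in NF-kB sites.
Tnfrsf9 start 1, chr4:150919905-150920204, plus strand: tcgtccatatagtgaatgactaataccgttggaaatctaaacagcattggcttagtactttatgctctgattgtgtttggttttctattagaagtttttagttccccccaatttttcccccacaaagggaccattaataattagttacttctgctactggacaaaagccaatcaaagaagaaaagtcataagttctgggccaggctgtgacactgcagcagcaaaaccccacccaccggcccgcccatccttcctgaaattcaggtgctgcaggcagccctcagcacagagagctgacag
Tnfrsf9 start 2, chr4:150927749-150928048, plus strand: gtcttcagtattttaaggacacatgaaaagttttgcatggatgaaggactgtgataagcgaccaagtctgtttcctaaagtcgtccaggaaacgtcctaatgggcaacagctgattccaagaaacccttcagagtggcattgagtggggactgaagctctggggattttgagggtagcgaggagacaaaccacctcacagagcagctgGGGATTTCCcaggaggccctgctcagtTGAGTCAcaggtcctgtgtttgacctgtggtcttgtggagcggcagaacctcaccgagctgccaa
Nrp2, chr1:62703067-62703366, plus strand: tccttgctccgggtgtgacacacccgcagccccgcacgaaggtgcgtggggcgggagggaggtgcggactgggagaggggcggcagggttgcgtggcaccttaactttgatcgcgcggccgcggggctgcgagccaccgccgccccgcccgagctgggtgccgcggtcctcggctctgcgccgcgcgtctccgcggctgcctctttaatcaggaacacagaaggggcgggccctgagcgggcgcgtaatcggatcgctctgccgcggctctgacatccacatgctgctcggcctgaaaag
Lmo4 start 1, chr3:144205206-144205505, minus strand: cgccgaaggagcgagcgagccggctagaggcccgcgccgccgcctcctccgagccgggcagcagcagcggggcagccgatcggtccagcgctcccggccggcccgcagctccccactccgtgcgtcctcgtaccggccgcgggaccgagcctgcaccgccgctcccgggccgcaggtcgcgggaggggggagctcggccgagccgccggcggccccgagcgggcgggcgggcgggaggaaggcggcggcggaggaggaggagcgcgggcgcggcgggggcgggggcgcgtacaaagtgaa
TGANTCA matched 1 of the 11 windows and 7.81% of all 32851 windows, and GGAAANNCC matched 1 of 11 and 5.82% of all. Both matches lay in the window of the second Tnfrsf9 start site and did not overlap. A longer NF-kB pattern, GGGA and TTCC parted by 2 bases, matched none of the 11 and 1.47% of all windows. CANNTG, the E-box, matched 6 of 11 and 72.3% of all, and is not marked. A match is a description of letters only, and binding was not measured.

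Genes outside the rule were compared by the ratio of CPM, combined over libraries as a Mantel-Haenszel ratio. A call needed 200 UMIs or more, a ratio of 1.5 or more in either direction, a 95% counting interval that left out 1, and 1 direction shared by all libraries (those holding 20 cells or more of both groups). Of 7383 genes tested, 337 were called higher in rich cells (4.56%) and 255 lower (3.45%), 8.02% in all, with a median log2 ratio of 0.05. Scaled by a median of ratios, 279 were higher and 324 lower, and in the deposited normalized values 264 and 298, so the split between directions depended on the scaling. Without library 3 the numbers were 382 and 253. Since the 7 genes chose the cells from the same data that gave these ratios, the ratios describe the chosen cells and are no test of them.

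Tmem121, a membrane protein gene, had the largest ratio among genes called higher. It was at 50.7, 65.8, 41.4 and 64.4 CPM in rich cells of libraries 1 to 4 and at 10.5, 15.6, 10.8 and 12.5 in cells below both limits, with no overlap (log2 ratio 2.15, 95% counting interval 1.83 to 2.47). Slc16a6, a transporter of the monocarboxylate family, was at 130, 164, 109 and 115 against 35.9, 37.4, 26.3 and 33.1 (log2 1.98, 1.78 to 2.19). Both genes were higher in rich cells of every library. Lad1, which encodes the filament protein ladinin, was at 225, 315, 219 and 308 against 110, 120, 64.3 and 97.9 (log2 1.504, 1.37 to 1.64), again with no overlap.

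The other 9 leading genes had ratios from 1.45 to 1.86 on the log2 scale and were Lag3, Prr5l, Ipo4, Dapl1, Penk, Adgrg1, Mex3a, Hivep3 and Cd160. Lag3, an inhibitory receptor that binds MHC class II, was at 34.8, 31.9, 19.4 and 7.80 against 12.4, 7.61, 1.91 and 6.42, and 17.4% of its 46 UMIs in rich cells came from 1 cell. Lag3, Mex3a, Prr5l, Ipo4 and Adgrg1 fell under 200 UMIs and so lost their call when single libraries were left out, with ratios still at least 2.54-fold. Cd160, another inhibitory receptor, was at 34.8, 43.9, 23.3 and 37.1 against 12, 15.9, 9.08 and 13.7. Penk, the precursor of enkephalin peptides, was uneven, at 44.3, 285, 142 and 41.0 against 34.2, 61.1, 48.5 and 33.8. Its level in libraries 1 and 4 was below that of library 2 in the cells below both limits, so the groups overlapped. Its call ended under 6 alternatives, among them the one without cells holding markers of other cell types (log2 1.01). Dapl1 was at 114, 43.9, 27.2 and 89.8 against 22.8, 30.4, 10.5 and 18.9. Its 125 UMIs came from 29 of the rich cells, and the groups overlapped here as well.

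Socs2 and Socs3, which encode inhibitors of cytokine signalling, were among the genes called lower, whereas Cish of the same family was not called (log2 -0.58). Socs2 was at 9.50, 7.98, 0 and 9.76 CPM in rich cells and at 38.4, 50.6, 1.20 and 48.6 in cells below both limits (log2 -2.34, -3.13 to -1.55). The groups overlapped, since library 3 was near 0 in both, and without that library the log2 ratio was -2.32. Socs3 was at 0, 3.99, 2.59 and 0 against 9.59, 12.2, 13.6 and 15.7, with no overlap. Its levels in rich cells rested on very few UMIs, since the rich cells of libraries 2 and 3 held 501280 and 773130 UMIs of all genes. Igfbp4, a binding protein of insulin-like growth factors, was at 6.33, 16, 14.2 and 5.85 against 54.7, 119, 40.4 and 46.1 (log2 -2.46, -3.03 to -1.89), and here too the groups did not overlap.

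Lgmn, the lysosomal protease legumain, rested on 2 UMIs in rich cells against 259 (log2 -3.09, -4.70 to -1.48). Dntt, the terminal transferase of antigen receptor rearrangement, was at 0, 3.99, 1.29 and 5.85 against 9.59, 9.71, 24.1 and 10.1. Library 3 had the highest level in the cells below both limits, and without it the log2 ratio moved from -2.24 to -1.26 and the gene, under 200 UMIs, was not called. Lgmn, Gm26771 and Gm5424 also lost their call for want of UMIs when single libraries were left out. The remaining leading genes called lower were G430095P16Rik, Grifin, Gm26771, Drc1, Gm5424, Gata1 and Hipk2, each at 5.23 CPM or less in rich cells.

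**Figure D2:**
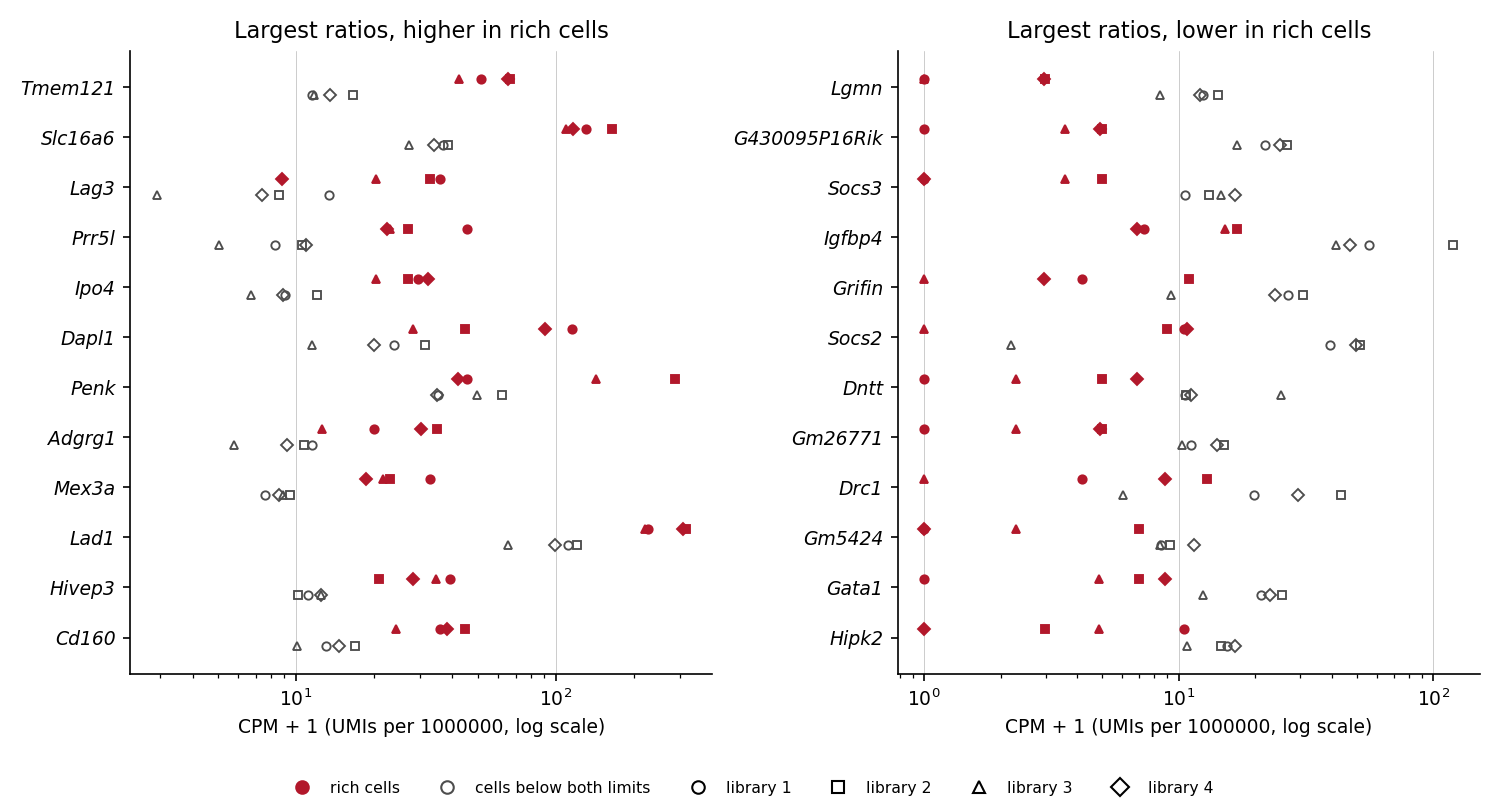
The 12 genes with the largest ratios in each direction, in CPM plus 1 on a log axis, 1 point per library, in rich cells (filled) and in cells below both limits (open). Tmem121, Slc16a6 and Lad1 do not overlap between groups, whereas Penk and Dapl1 do. Points at 1 are libraries with no UMI.

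Of 12 TNF receptors and ligands tested, apart from Tnfrsf9, 1 was called higher and 1 lower, with 6 ratios above 1 and 6 below. Their median log2 ratio was 0.06 (-0.04 without library 4 and 0.23 without library 3). Among all genes tested, 4.56% were called higher and 3.45% lower. Tnfrsf1b (TNF receptor 2) was at 130, 146, 89.2 and 87.8 against 55.3, 65.1, 50.4 and 62.7 CPM, with no overlap. Lta, the ligand lymphotoxin alpha, was lower over all libraries, at 32.3 against 63.2. The receptors Tnfrsf4 (OX40) and Tnfrsf18 (GITR) did not reach 1.5-fold, at 1273 against 1009 and 950 against 795. Of 12 TRAF adaptors and related proteins none was called higher and 2 lower, Traf5 and the kinase gene Ripk1 (median 0.12; 0.24 without library 3). Ripk1 was not called without library 4 (log2 -0.63).

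Of 13 NF-kB subunits and inhibitors, 3 were called higher and none lower (median log2 0.23), beside 4.56% and 3.45% of all genes tested. Nfkb2, the p100 subunit precursor of the non-canonical pathway, was at 124, 110, 127 and 137 CPM against 56.8, 61.6, 60.004 and 57.8 (log2 1.07, 0.88 to 1.26). Relb, its partner, was at 105, 134, 93.1 and 111 against 59.6, 63.1, 66.5 and 62.0 (log2 0.79, 0.59 to 0.99). Both were higher in all libraries without overlap. The third was Nfkbie, an inhibitor, at 44.2 against 23.4 over all libraries. Nfkb1 was at 110 against 75.3 and was not called.

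Of 16 TCR early response genes tested outside the rule, 1 was called higher and 3 lower (median log2 -0.09). Over all genes tested, 4.56% were called higher and 3.45% lower. Dusp5, a phosphatase of ERK, was higher, and Jun, Fos and Egr1, all immediate early transcription factors, were lower. Egr1 was at 9.50, 1.99, 23.3 and 17.6 against 31.0, 26.0, 39.9 and 33.4, with no overlap. Nr4a1 (Nur77), a gauge of TCR signal, was at 92.7 against 85.6 and was not called. Dusp5 was not called without library 2 (log2 0.47). Since the rule itself caps 7 TCR-induced genes, these values are not independent of it. Agonist selection genes counted 4 higher and 2 lower of 19 (median 0.23): Itm2a, Pdcd1 (PD-1), Gfi1 and Lag3 were higher, and Ctla4 and Slamf6 lower. Itm2a was at 1086, 983, 1217 and 1007 against 616, 612, 916 and 564, and the groups did not overlap. Without library 4, Itm2a (log2 0.56) and Gfi1 (0.53) were under 1.5-fold.

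Treg identity genes went both ways. Of 15 tested, Ikzf2 was called higher and 5 lower, namely Gpr83, Ctla4, Izumo1r, Capg and Socs2 (median log2 -0.40). Shares over all genes tested were 4.56% higher and 3.45% lower. Ikzf2 (Helios), a transcription factor of thymic Treg cells, was at 1656, 1690, 1834 and 1565 against 870, 866, 824 and 892 (log2 0.99, 0.94 to 1.04). No library of rich cells overlapped the cells below both limits for this gene. Gpr83, a G protein-coupled receptor, was at 53.8, 73.8, 41.4 and 60.5 against 220, 235, 90.4 and 186 (log2 -1.60, -1.86 to -1.33). Ctla4, an inhibitory receptor, was at 66.5, 106, 68.6 and 64.4 against 196, 187, 89.4 and 150. Its groups overlapped, since library 2 of the rich cells exceeded library 3 of the others. Izumo1r (folate receptor 4) was at 214 against 421 over all libraries. Capg was not called without library 1 (log2 -0.53).

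Within libraries the median of the list was -1.06, -0.56, 0.07 and -0.37, so library 3 differed in sign, and without it the combined median was -0.54. Summed over the list, the level was 4708 CPM in rich cells and 4091 in cells below both limits, the opposite sign to the median, with Ikzf2 giving 1707 and 866 of those. Foxp3 rested on 21 UMIs in rich cells and 352 in the others, at 9.99 against 15.3 CPM, and was not called. Of the genes that mark Treg cells, Ikzf2, Tnfrsf4 and Tnfrsf18 were the most abundant in the rich cells, and the sort itself required the Foxp3 reporter.

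The IL-2 and STAT5 response list had the lowest median of the lists with at least 5 genes tested (log2 -0.58), and all 13 tested genes had a ratio below 1. None was called higher and 6 lower: Bcl2, Pim2, Socs2, Socs3, Il2rb and Lta. The shares over all genes tested were 4.56% and 3.45%. Il2rb, the receptor chain shared by IL-2 and IL-15, was at 117, 130, 114 and 127 against 217, 260, 137 and 203, with no overlap, though it was under 1.5-fold without library 2 (log2 -0.56). Bcl2, a survival factor, was at 453, 469, 365 and 447 against 647, 743, 645 and 712. Both were lower in rich cells of every library. Il2ra was at 72.8, 134, 16.8 and 125 against 179, 174, 29.9 and 161 and was 1.49-fold lower, short of a call. Pim2 was not called without library 1 (log2 -0.51) or library 3 (-0.69). Il2rg, the common gamma chain, was at 303 against 287. Il15ra rested on 9 UMIs in rich cells and was not tested.

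Of 11 BCL2 family genes, Bcl2 was called lower and 4 higher, namely Bcl2l1 (BCL-XL), Bid, Bcl2a1d and Bcl2a1b. Their median log2 ratio was 0.16 (0.04 without library 2). Calls over all genes tested were 4.56% higher and 3.45% lower. Bcl2a1b was at 158, 154, 191 and 191 against 113, 107, 118 and 94.6, and Bcl2a1d at 174, 126, 178 and 154 against 87.1, 83.3, 85.1 and 67.5. The groups did not overlap for either gene. These are near-identical paralogs, so reads may not tell them fully apart. Of 22 MYC target and ribosome biogenesis genes, 11 were called higher and none lower (median log2 0.63), and all 22 had a ratio above 1. Srm, spermidine synthase, was at 98.2, 118, 78.9 and 107 against 49.7, 65.7, 28.9 and 47.5, with no overlap. Myc itself was at 52.8 against 63.8 and was not called.

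Genes of late maturation and egress were lower or not called: 3 of 19 were lower and none higher (median log2 -0.37). Beside this, 3.45% of all genes tested were lower and 4.56% higher. Itgb7, an integrin chain, was at 152, 255, 176 and 170 against 299, 350, 282 and 325, with no overlap. Ly6c1, a surface marker of mature T cells, was at 6.33, 5.98, 27.2 and 9.76 against 11.7, 8.26, 53.5 and 19.3 (log2 -0.91, -1.43 to -0.39). It was lower within each library, the groups overlapped across libraries, and it was not called without library 3 (log2 -0.75). S1pr1, the receptor used for thymic exit, was at 172 against 212, and Klf2, which drives it, at 1094 against 1405, and neither was called. Of 9 immature thymocyte genes, Cd24a and Sox4 were called higher and Dntt lower. Cd24a was at 66.5, 110, 32.3 and 62.4 against 29.0, 28.1, 25.6 and 25.0, and Sox4 at 462, 427, 494 and 425 against 217, 163, 376 and 231. Both were higher in each library. The median of this list, -0.34, changed sign to 0.06 without library 3.

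Other members of the families to which the rule genes belong are given beside a share of 8.02% called either way over all genes tested. Among 9 LIM, E protein and Id partner genes none was called either way, nor among 4 semaphorins and plexins. Of 9 RGS genes, Rgs1 and Rgs14 were lower (median log2 -0.06; 0.12 without library 3): Rgs1 was at 127, 106, 59.5 and 85.8 against 294, 282, 106 and 267, and its groups overlapped through library 3. Of 14 nuclear receptors and coregulators, Rora was higher, at 76.0, 71.8, 63.4 and 99.5 against 35.5, 35.7, 23.9 and 38.2. Rora also counted among the 2 of 8 effector Treg genes called higher, with Itgb8, an integrin chain that fell under 200 UMIs when single libraries were left out (median log2 0.44; 0.20 without library 3). Of 20 interferon response genes, 3 were lower (Rsad2, Ifit2 and Ifit3) and none higher (median log2 -0.46). Ifit2 was not called without library 3 (log2 -0.68), nor Rsad2 without library 1 (-0.67) or library 2 (-0.55). Of 10 chemokine and lipid receptors, Gpr183 was higher and Gpr18 lower, and Gpr183 was not called without library 4 (log2 0.56). Of 17 S phase genes 4 were lower and none higher, and Top2a was the only one called, lower, of 6 G2 and M phase genes.

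**Figure D3:**
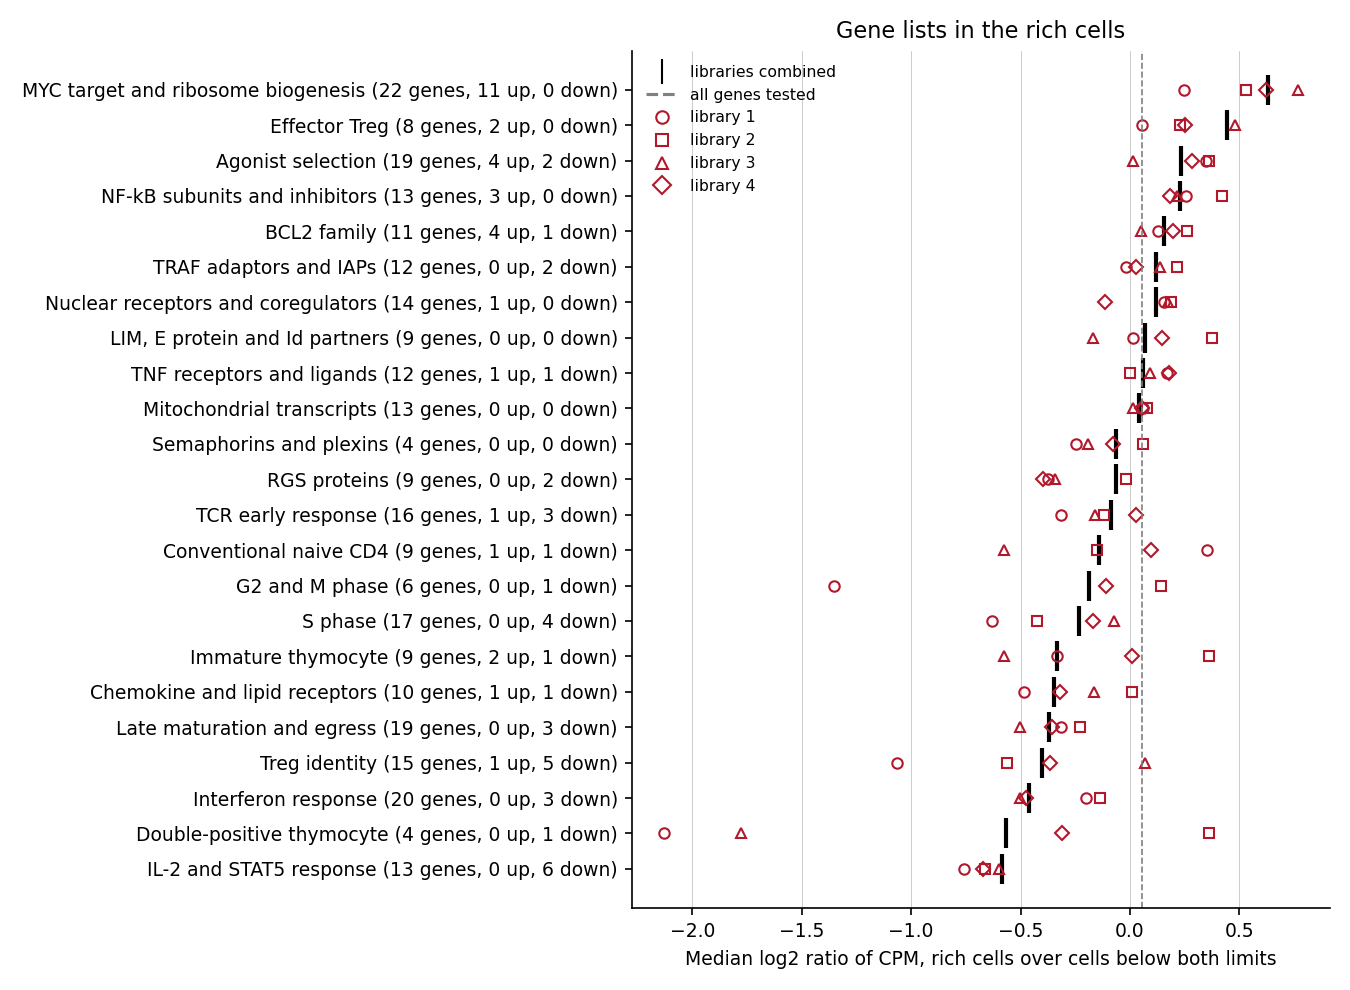
Median log2 ratio of CPM, rich cells over cells below both limits, for each list with at least 4 genes tested: black bars are the libraries combined, open symbols single libraries, and the dashed line the median of all genes tested, 0.05. MYC target genes stand at 0.63 and IL-2 and STAT5 response genes at -0.58.

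The conventional naive CD4 list, which holds genes that Treg cells also express, summed to 1327 CPM in rich cells and 1411 in cells below both limits. In library 1 the list was higher in rich cells (1514 against 1350), and in libraries 2, 3 and 4 it was lower. Of the 9 genes of this list, Dapl1 was called higher and Igfbp4 lower (median log2 -0.14). The other lists of markers summed to less. The antigen-presenting and myeloid list summed to 276 CPM in rich cells (187 to 344 between libraries) and 195 in cells below both limits (178 to 212). Of its 13 genes, 6 were at 0 in rich cells (Lyz2, Csf1r, Itgax, Tyrobp, Batf3 and Xcr1) and 2 in cells below both limits (Csf1r and Itgax). Rich cells held 2102669 UMIs in all and cells below both limits 23045710, so zeros are easier to reach in rich cells. At least 2 UMIs of the list were held by 19.4% of rich cells and 15.9% of the others. Cd74, the MHC class II invariant chain, was called higher, at 63.3, 118, 221 and 103 against 53.4, 59.9, 99.7 and 48.0. The NK, NKT and gamma delta list summed to 206 against 169, with Nkg7 called higher (log2 0.62, but 0.50 and not called without library 4). Klrb1c, Klrd1, Klrk1, Zbtb16 and Ncr1 were at 0 in rich cells, and of the list only Ncr1 was at 0 in cells below both limits. Double-positive thymocyte, B cell, epithelial and stromal, and erythroid lists summed to 93.7, 29.5, 101 and 19.97 in rich cells against 129, 37.4, 139 and 13.0. These sums pool libraries, and library 3 gave 260 of 639 rich cells but 1468 of 6166 others. Within library 3 the erythroid list was at 53.03 against 53.07. The double-positive list was higher in rich cells in library 2 (118 against 104) and lower in libraries 1, 3 and 4. The B cell list was higher in libraries 2 and 4 and lower in libraries 1 and 3. Cd4 was at 121 against 150, and Cd8a at 9.99 against 14.6. Without cells holding 2 or more UMIs of these lists, 328 rich cells remained, with 276 genes higher and 211 lower. The naive CD4 list was no part of this filter, since 541 rich cells held 2 or more UMIs of it. The filter left out 48.7% of rich cells and 48.7% of cells below both limits. The part of these markers in the lists above was not tested.

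Among cells under the TCR limit, genes were followed along the summed level of the 7 rule genes, and 4 that rose or fell are given first. Over all libraries together, Tmem121 was at 1.72 CPM in 1757 cells with none of the 7 genes, at 15.5 in 1515 cells from 500 to 1000 CPM, at 44.4 in 400 rich cells from 2000 to 3000, and at 71.8 in 239 rich cells at 3000 or more. Tbc1d4, a Rab GTPase-activating protein, was at 57.1, 99.1, 227 and 308 in the same bins. Gpr83 went the other way, at 244, 176, 67.4 and 34.6, and so did Igfbp4, at 105, 56.5, 14.8 and 5.32. Not every gene followed had such a trend: Nr4a1 was at 89.8, 79.7, 94.8 and 89.0 in these bins. Il2ra in library 3 was at 27.2, 25.3, 23.7 and 6.47. From the cells with none of the 7 genes to those at 3000 CPM or more, Tmem121 went from 1.84, 1.81, 0 and 2.56 to 28.8, 126, 58.2 and 84.9 in libraries 1 to 4, and Gpr83 from 288, 298, 118 and 231 to 28.8, 52.9, 25.9 and 39.2. Single libraries did not always change in 1 direction between neighbouring bins: Tmem121 in library 1 was at 67.8 and then 28.8 in the last 2 bins, and Igfbp4 in library 3 at 37.0 and then 77.8 in the first 2. These cells were ordered by the rule, so the trend is a description.

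**Figure D4:**
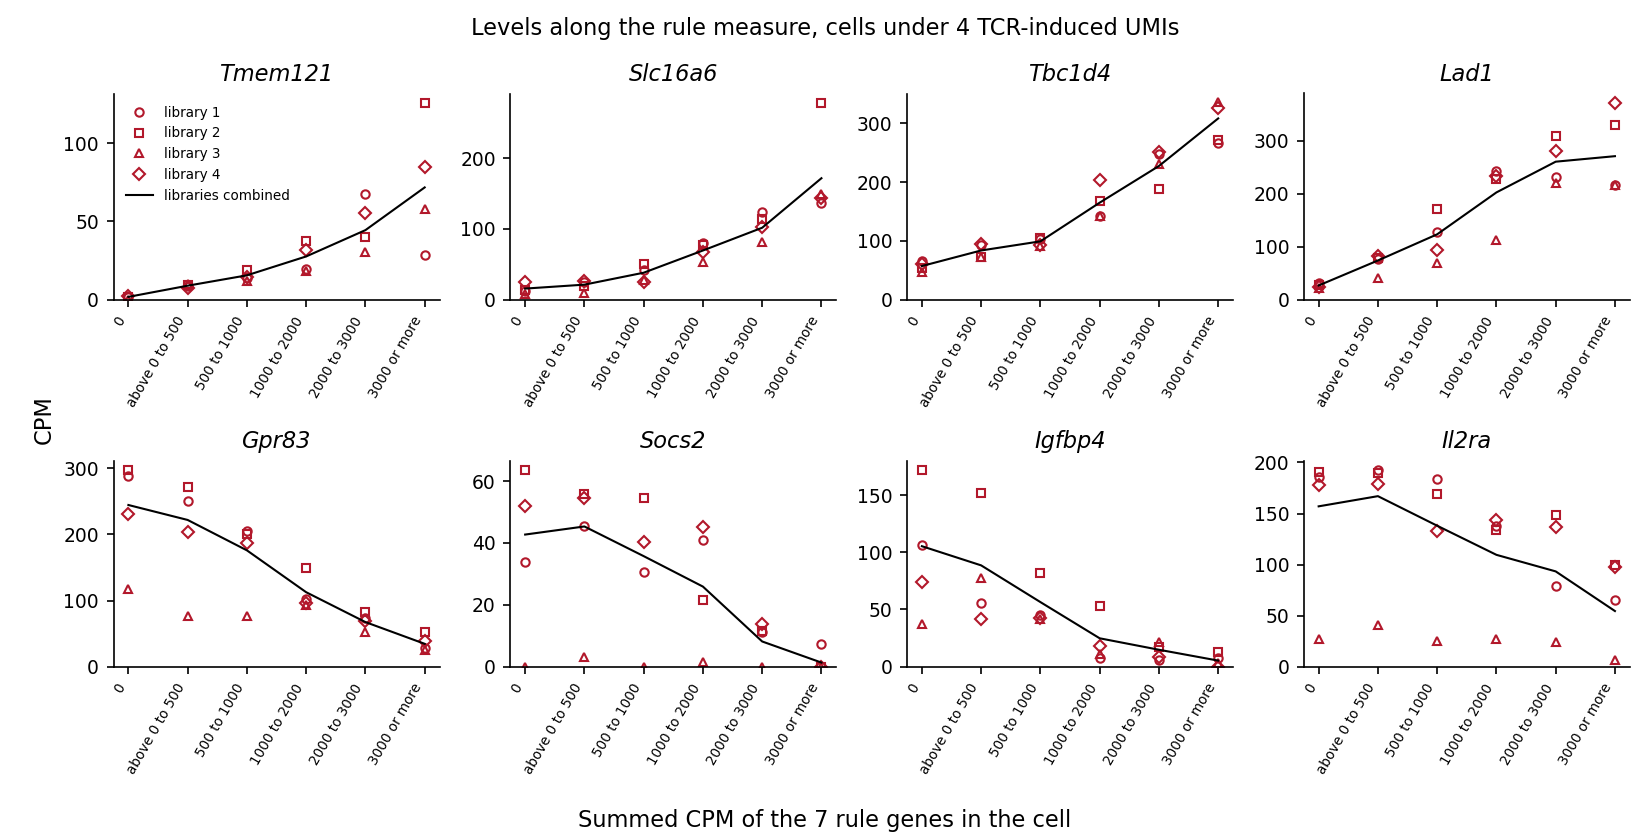
CPM of 8 genes in cells under the TCR limit, in 6 bins of the summed level of the 7 rule genes: symbols are libraries and the line all libraries combined. The last 2 bins are the rich cells. Tmem121 goes from 1.72 to 71.8 and Gpr83 from 244 to 34.6.

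Against the 366 cells over the TCR limit only, which had a median of 5205 UMIs, 177 of 2881 genes tested were called higher in rich cells (6.14%) and 201 lower (6.98%). The TCR limit parts these cells, so the direction of TCR-induced genes follows from the rule. S1pr1 was at 146, 182, 181 and 164 CPM in rich cells against 30.8, 48.3, 44.5 and 37.1 (log2 2.04, 1.70 to 2.39), with no overlap. Klf2 was at 1109, 1243, 1046 and 1013 against 488, 538, 484 and 496. Txnip, a thioredoxin inhibitor, and Tsc22d3, a glucocorticoid-induced regulator, were higher as well, at 107 against 27.2 and 246 against 75.2. Ikzf2 was higher here too, at 1707 against 975, as were Ikzf4 (122 against 68.1), Tox (247 against 127) and Sox4 (457 against 189).

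Lower in rich cells than in cells over the TCR limit only were 9 of 14 TCR early response genes, 14 of 21 MYC target genes, 6 of 13 NF-kB genes and 7 of 9 S phase genes. The TCR limit counts UMIs without scaling to depth, and the median was 2871 UMIs in rich cells against 5205. The part of depth in the MYC target and S phase differences was not tested. Nr4a1 was at 63.3, 108, 94.4 and 93.7 against 361, 346, 647 and 489 (log2 -2.26, -2.50 to -2.02). Il2ra was at 72.8, 134, 16.8 and 125 against 329, 293, 114 and 267, and its groups overlapped through library 3. Bcl2l1 was at 58.5 against 256, and Tnfrsf4 at 1273 against 2609. Bcl2a1b, Bcl2a1d and Nfkb2, called higher against cells below both limits, were called lower against cells over the TCR limit only. Srm and Bcl2l1 stood between the other groups: Srm was at 50.6, 98.0 and 203 in cells below both limits, rich cells and cells over the TCR limit only, and Bcl2l1 at 37.3, 58.5 and 256. In the 60 cells over both limits Srm was at 355. Among cells thinned to 1886 UMIs, Lag3 was found in 2.31% of rich cells and 2.81% of cells over the TCR limit only. Cd24a was found in 9.61% and 8.15% of these. In cells over both limits the shares were 5.17% for Lag3 and 24.1% for Cd24a.

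Rich cells differed among themselves by which rule gene led. In 284 cells Lmo4 had more UMIs than Tnfrsf9, in 283 Tnfrsf9 had more, and in 72 they were equal. The first 2 sets had medians of 2906.5 and 2923 UMIs. Of 1352 genes tested outside the rule, 51 were called higher in cells with more Lmo4 (3.77%) and 112 lower (8.28%). Tnfrsf4 was at 457, 758, 738 and 771 CPM in cells with more Lmo4 and at 2199, 1757, 1734 and 2279 in cells with more Tnfrsf9 (log2 -1.45, -1.58 to -1.32). Tnfrsf18 was at 420, 904, 689 and 692 against 1626, 1246, 1099 and 1222. Neither gene overlapped. Cd82, a tetraspanin, was at 137 against 507, and Lad1 at 128 against 413.

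Members of the NF-kB list called in this split were Nfkb1, Relb and Nfkb2, all lower in cells with more Lmo4, 3 of 5 tested. Nfkb2 was at 79.2, 72.8, 98.1 and 88.8 against 165, 140, 174 and 181, with no overlap. MYC target genes were lower in 8 of 10 tested, among them Nop58, which processes ribosomal RNA, at 18.3, 78.9, 51.5 and 93.5 against 174, 196, 154 and 185. Higher in cells with more Lmo4 were Cd7, a costimulatory surface protein, at 145 against 65.8, Sh2d1a (SAP), the adaptor of SLAM receptors, at 152 against 70.0. Sh2d1a was at 171, 158, 142 and 154 against 95.6, 96.3, 55.8 and 43.2, with no overlap. Ikzf2 was at 1795 against 1634 and was not called. Slc16a6 was at 120 against 135, also not called. Tnfrsf9 and Lmo4, both rule genes, set this split, so its values are a description.

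**Figure D5:**
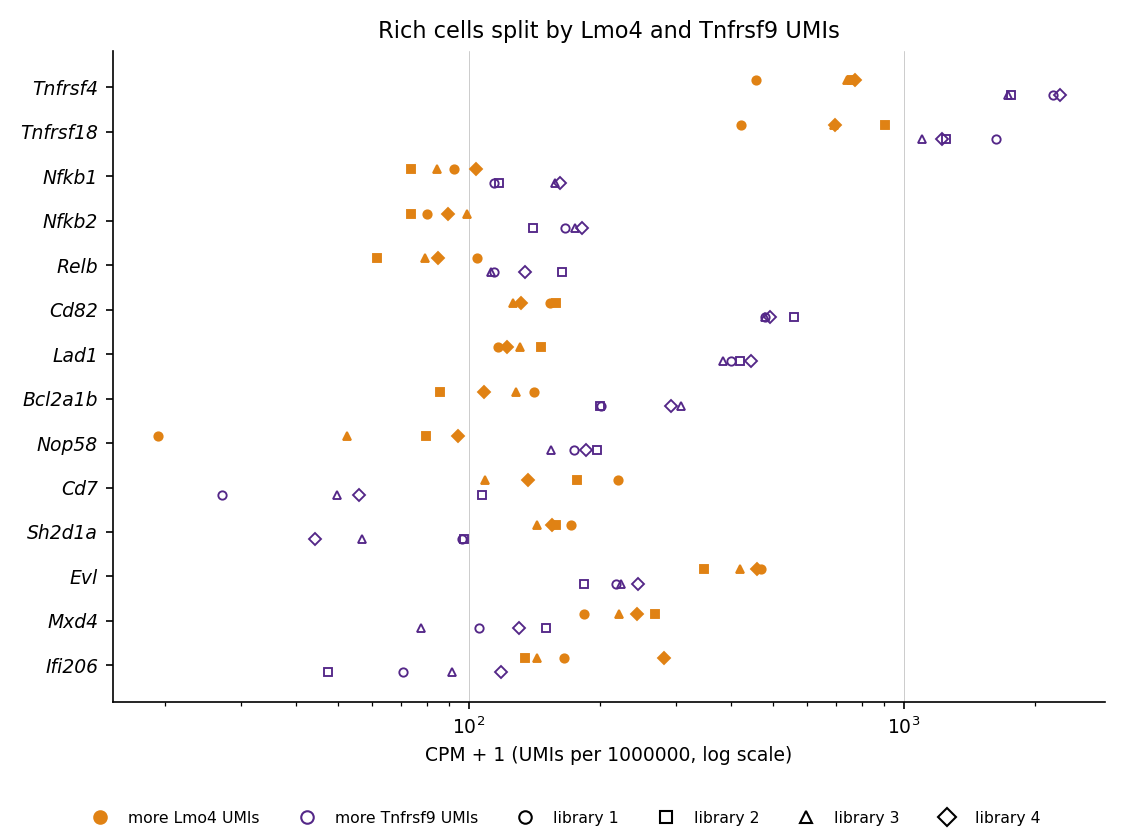
CPM plus 1, log axis, of 14 genes in rich cells with more Lmo4 UMIs than Tnfrsf9 (filled, 284 cells) and with more Tnfrsf9 than Lmo4 (open, 283 cells), 1 point per library. Tnfrsf4, Tnfrsf18, Cd82 and Lad1 are lower in cells with more Lmo4 in every library, and Evl, Mxd4 and Sh2d1a higher.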

How the data were processed

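Single-cell libraries of sorted thymic Treg cells (Chromium 3' v2) were processed with CASAVA 2.20, Cell Ranger 2.0.2 and R 3.4.1 against mm10, per the submitters' processing notes. The authors deposited 1 table of UMI counts (27998 genes, 8273 cells) and 1 normalized table labelled G1 (9571 genes, 7231 cells). The values the authors deposited in the second are log2 of each count divided by 1 factor per cell plus 1: undone, they matched count over factor within a relative deviation of 6.9e-14. The sources used here do not give how the G1 cells were chosen.

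From the counts, UMIs per 1000000 (CPM) were computed from sums over the cells of each class and library. They were combined as Mantel-Haenszel ratios in Python 3.11.15 with scipy 1.17.1, pandas 2.3.3 and numpy 2.4.6, with 0.5 UMIs added for logs. The ratio step was run on simulated Poisson counts. Of changes of 1.5, 2 and 3-fold, 36%, 88% and 97.3% were called, as were 72 of 7182 unchanged genes. The simulated counts held no variation between cells, so they cannot show whether the intervals cover it. Shares have exact binomial (Clopper-Pearson) intervals. Named genes were the rule genes, up to 12 called genes with the largest ratio each way without receptor segment genes, up to 6 members of each of 28 lists, and Foxp3, Il2, Il2ra, Il2rb, Il2rg, Il15ra, Cd4 and Cd8a. Tbc1d4, Cd82 and the gene sets plotted were chosen after their values were seen. The cells and the lists were chosen with earlier results of these data known. UMIs were used, so counts are of molecules. Intervals cover counting error only.
Results on 1 gene and 1 list are not reported here.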

Additional observations from a re-analysis of the deposited data

Results flagged for a closer look

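Cells outside the G1 table were not used above, although 118 of 1042 of them (11.3%) also met both limits on the rule genes: 11 of 212 in library 1, 22 of 345 in library 2, 62 of 253 in library 3 and 23 of 232 in library 4. As among the G1-table cells, the share was highest in library 3, at 24.5% against 5.19%, 6.38% and 9.91%. They are listed here because a signal in data left out of the main comparison calls for a closer look.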

How the results depend on the processing

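Of 348 alternative values of 24 results, 309 kept their value within the spread between libraries, 1.5 times the count or the interval of the share, and 39 moved. Of 1445 gene ratios under the alternatives, 1203 kept their call, 242 lost it and none changed sign, over 85 genes. Leaving out each library gave 292 to 382 genes higher and 242 to 258 lower. List medians then ranged from -0.038 to 0.23 for TNF receptors, 0.13 to 0.24 for TRAF adaptors, 0.22 to 0.34 for NF-kB, -0.69 to -0.51 for IL-2 and STAT5, 0.20 to 0.45 for effector Treg, -0.24 to 0.12 for RGS and 0.040 to 0.19 for BCL2 genes. A minimum of 1000 UMIs, which tests 3151 genes, gave 92 higher and 103 lower, and medians of 0.35 for TNF receptors and 0.26 for TRAF adaptors. With a limit of 3000 CPM the medians were -0.69 for IL-2 and STAT5, 0.19 for effector Treg and -0.26 for RGS genes, and 4 of the calls changed sign. Against all other G1-table cells effector Treg genes had 0.24. In the normalized table RGS genes had -0.27 and BCL2 genes 0.044. The cause of these moves was not tested.

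These alternatives were chosen after seeing the data. Without cells with markers of other cell types the medians were 0.37 for TNF receptors, 0.41 for NF-kB, -0.45 for IL-2 and STAT5, 0.88 for MYC targets, 0.22 for effector Treg and -0.30 for RGS genes. Without cells with a shared barcode, 340 genes were higher and 249 lower. Shares of rich cells moved with the limits: 2.79%, 1.99%, 6.11% and 2.52% at 3000 CPM, 9.32%, 10.4%, 19.2% and 10.2% at equal depth, 5.27% and 6.85% in libraries 2 and 4 with fewer than 2 TCR-induced UMIs, and 6.68% in library 4 among cells of at least 2500 UMIs. No paired analysis was possible because the columns carry no replicate number of a sample, which concerns genotypes only: rich cells and cells below both limits were compared within each library. Foxp3, with 21 UMIs in rich cells, had a log2 ratio of -0.58 with an interval of -1.20 to 0.05.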
